A study of Rattus norvegicus with 12 samples.

Results

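The enzymes described here carry out the citric acid cycle, and their transcripts were followed in H9c2(2-1) rat cells kept with glucose, without glucose, or without glucose in the presence of the drug empagliflozin. The members are rows of the deposited expression table chosen by gene symbol alone: Cs, Idh2, Idh3a, Idh3b, Ogdh, Suclg1, Sdha, Sdhb and Mdh2. Of these 9 listed symbols, 8 had a row among the 35966 of the table, 7 spelled as listed and 1, Idh3b, spelled Idh3B and described there as the beta subunit of the NAD-dependent isocitrate dehydrogenase. Ogdh had no row under that symbol and was not analysed here. All 8 rows passed the filter on low values.

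The 12 libraries are RNA-seq of total RNA in 4 groups of 3. DMEM rich in glucose with 10% fetal bovine serum was the medium of the control cells. Glucose was withheld for 36 h in the deprived (GD) group, and the other two groups were deprived for the same 36 h with empagliflozin at 100 µM or at 200 µM. All groups are the same wild-type line. Empagliflozin is a blood-glucose-lowering drug that blocks SGLT2, a cotransporter of sodium and glucose in the kidney. The labels state neither serum in the deprived groups, nor a solvent, nor a batch, nor whether replicate libraries come from separate cultures. The p-values therefore measure the spread between these libraries, which may be technical.

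H9c2 is a single line derived from embryonic rat heart that can form muscle-like cells, and the labels call it a myocardial cell. Its cardiac markers were mixed. Myh6 reached at most 0.12 TPM (transcripts per 1000000), Nkx2-5 at most 0.08 TPM and Actc1 at most 0.38 TPM in any library. Tnnt2, the gene of cardiac troponin T, averaged 142.18 TPM in control, 23.06 TPM in GD, 22.33 TPM at 100 µM and 42.5 TPM at 200 µM. Muscle genes of the myoblast lineage were present in control and much lower after deprivation. Myog, a factor of muscle differentiation, averaged 20.5 TPM in control and 0.11 TPM in GD, and the summed TPM of the 8 muscle markers ranged from 325.61 to 341.29 in control, 48.46 to 55.06 in GD, 37.39 to 55.35 with 100 µM and 59.3 to 100.53 with 200 µM. The 9 markers of endothelium, leukocytes and fibroblasts summed to between 1.11 and 5.07 TPM in every library. The part of the muscle genes in the differences below was not tested. In RNA from whole cultures, fewer cells of a type and less RNA per cell cannot be told apart.

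In the cycle, citrate synthase joins acetyl-CoA to oxaloacetate, and the following dehydrogenases release carbon dioxide while handing electrons to NAD or, at succinate, to the respiratory chain. Malate dehydrogenase then restores oxaloacetate. Heart muscle depends on the cycle for most of its ATP, and the cycle also supplies citrate, oxoglutarate and oxaloacetate for the synthesis of lipids and amino acids. Its enzymes are encoded in the nucleus and imported into mitochondria.

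Values are TPM, which are parts of a total per library, and a log2 fold change is the difference between 2 group means of log2(TPM + 1). A change is called at an adjusted p under 0.05 from limma over all 12314 genes tested. The deprived libraries differed from control in composition: genes of cytosolic ribosomal proteins and ferritin took 19.3 to 19.9% of the TPM in control, 38.8 to 42.7% in GD, 39.2 to 42.5% with 100 µM and 37.0 to 38.8% with 200 µM. Between GD and control, all tested genes together had a median log2 fold change of -0.65; it was 0.02 at 100 µM and 0.14 at 200 µM against GD. An alternative that scales each library by the median of its gene-wise ratios brought the first of these medians to 0.004, and its values are given for members whose direction or call it changed. Genes at 1 TPM or more numbered 12018 to 12074 in control and 10551 to 11322 in the deprived libraries, and total TPM ranged from 946400.5 to 981389.8.

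Most cycle enzymes were lower after deprivation in the values as deposited, and 3 of them (Idh2, Sdha and Mdh2) also after median-of-ratios scaling. As deposited, 6 of the 8 members fell against control, none rose, and 2 were not called (Idh3b and Suclg1). Of all tested genes, 67.6% fell and 14.0% rose in the same comparison, so a count of 6 of 8 lies near the background. The median log2 fold change of the members was -0.62, beside the -0.65 of the whole table. Under median-of-ratios scaling 4 members rose (Cs, Idh3b, Suclg1 and Sdhb), 3 fell (Idh2, Sdha and Mdh2) and Idh3a was not called, where 38.5% of all tested genes rose and 38.5% fell. The order among the members ran from Idh2, the lowest, through Sdha and Mdh2 to Suclg1 and Idh3b under both scalings. Scaling divides a library by 1 factor and shifts all members nearly alike, so a shared order was largely set beforehand.

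The members together summed to 1390 ± 31.5 TPM in control and 845.6 ± 39.7 TPM in GD (SD, n = 3), and to 892.3 ± 35.9 TPM with 100 µM and 930.1 ± 45.9 TPM with 200 µM. Their proportions shifted within that sum. Idh2 supplied 17.0% of it in control and 7.33% in GD, while Suclg1 supplied 14.5% in control and 22.6% in GD. Idh3b rose from 5.40% to 8.84% of the sum. These shares do not depend on the scaling of a library. At 200 µM the shares of Idh2 and Suclg1 were 7.91% and 18.5%, and Mdh2, the most abundant member in control at 25.4%, held 21.0% in GD and 23.6% at 200 µM.

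**Figure D1:**
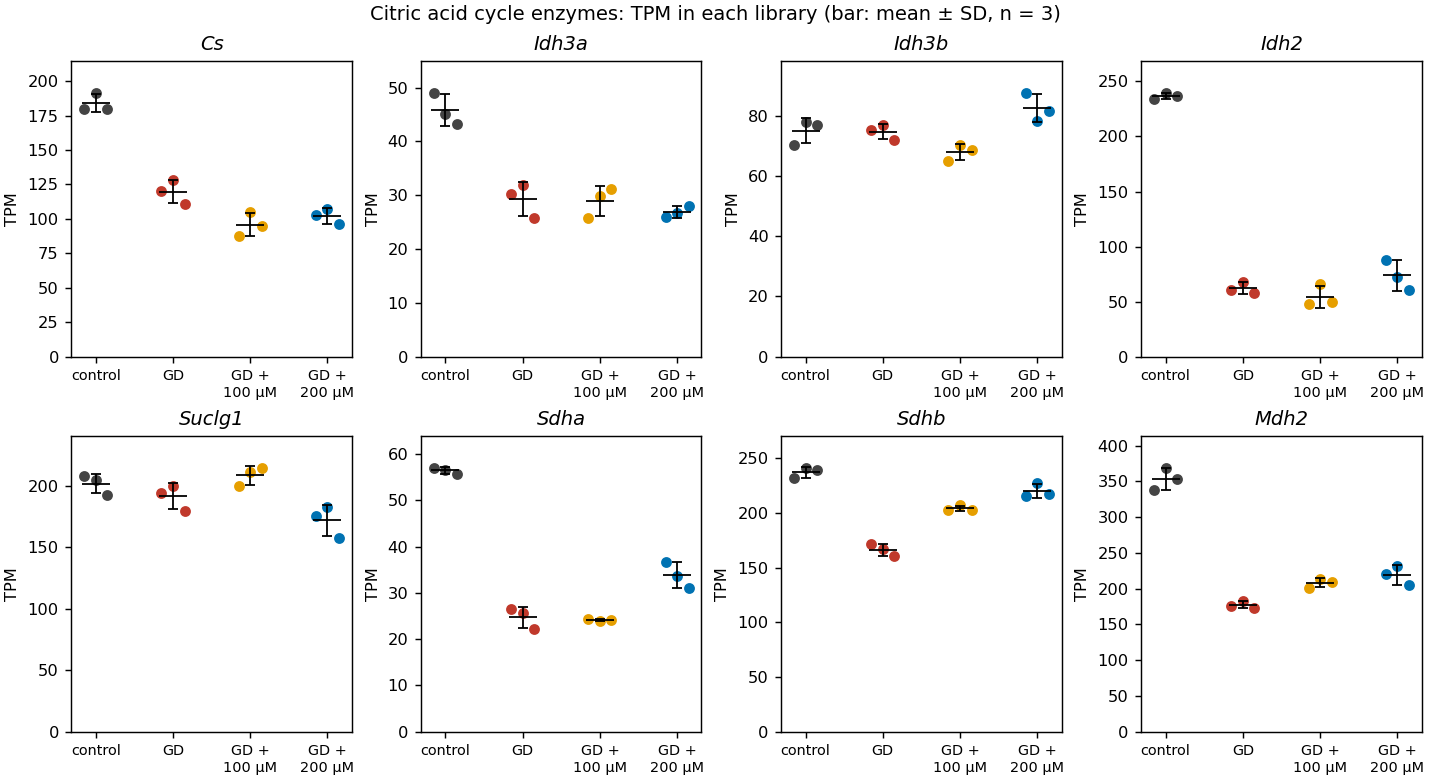
TPM of the 8 cycle enzymes (vertical axes) in the 3 libraries of each group (horizontal axes, points), with the mean and SD as bars. Idh2 lies between 234.41 and 239.71 TPM in control and at or below 88.24 TPM in every deprived library, whereas the control and GD points of Idh3b overlap.

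Cs encodes citrate synthase, which brings acetyl-CoA into the cycle. Its level was 180.00, 191.58 and 180.13 TPM in the control libraries, 119.91, 127.98 and 111.10 TPM in GD, 87.87, 104.83 and 94.78 TPM at 100 µM, and 102.87, 107.12 and 96.04 TPM at 200 µM. All control libraries were highest, and the GD libraries lay above those of both doses. Cs fell with deprivation by 0.62 on the log2 scale (SE 0.08, adjusted p = 4.94e-06), close to the median of all genes, and under median-of-ratios scaling it rose by 0.15 (adjusted p = 0.0362). It was the one member called lower than GD at both doses, with log2 fold changes of -0.32 at 100 µM (adjusted p = 0.015) and -0.23 at 200 µM (adjusted p = 0.027). Under median-of-ratios scaling these were -0.36 and -0.42. The doses themselves were 0.09 apart (95% interval -0.07 to 0.25, adjusted p = 0.38). Both calls were sensitive to single libraries: the one at 100 µM was lost without GD replicate 2 (-0.27, adjusted p = 0.0599) or 100 µM replicate 1 (-0.26, adjusted p = 0.0628), and the one at 200 µM without GD replicate 1 or 2 or 200 µM replicate 1 or 3 (-0.18 to -0.23, adjusted p up to 0.102). A fit of the 2 groups alone gave an adjusted p of 0.0671 at 100 µM, and limma without a trend gave 0.0542 at 200 µM.

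Idh3a and Idh3b encode subunits of the NAD-dependent isocitrate dehydrogenase, in which alpha is the catalytic subunit and beta and gamma have regulatory roles. Idh3a was at 49.04, 45.10 and 43.19 TPM in control, 30.22, 31.82 and 25.81 TPM in GD, 25.80, 29.89 and 31.18 TPM at 100 µM, and 25.96, 26.73 and 28.07 TPM at 200 µM. The deprived libraries overlapped one another and all lay below control. Idh3a fell with deprivation (log2 fold change -0.63, SE 0.09, adjusted p = 3.27e-05), whereas median-of-ratios scaling gave 0.12 (adjusted p = 0.103). Neither dose differed from GD by the test: the log2 fold changes were -0.01 (95% interval -0.22 to 0.19) at 100 µM and -0.11 (-0.32 to 0.09) at 200 µM. The latter was a called fall of 0.30 under median-of-ratios scaling (adjusted p = 0.00222), and so was the difference between the doses (-0.10 as deposited, -0.25 when scaled, adjusted p = 0.00917).

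Idh3b followed another course. It was at 70.30, 78.10 and 76.89 TPM in control and at 75.29, 76.88 and 71.99 TPM in GD, so the groups overlapped and the log2 fold change was -0.01 (95% interval -0.15 to 0.13, adjusted p = 0.934). That change was higher than those of about 78.0% of all tested genes. Relative to the median gene Idh3b rose by 0.76 under median-of-ratios scaling (adjusted p = 1.36e-06). With the drug it was at 65.11, 70.27 and 68.72 TPM at 100 µM and at 87.68, 78.39 and 81.61 TPM at 200 µM. All libraries of the higher dose exceeded those of the lower, and the doses differed by 0.27 (SE 0.07, adjusted p = 0.0059), although not under median-of-ratios scaling (0.12, adjusted p = 0.245). Against GD the log2 fold changes were -0.13 (adjusted p = 0.21) and 0.14 (adjusted p = 0.0981), and the second turned to -0.05 under median-of-ratios scaling.

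Idh2 encodes the NADP-dependent isocitrate dehydrogenase of mitochondria, which makes NADPH. It changed most of all members. Control libraries held 234.41, 239.71 and 236.33 TPM, GD libraries 60.71, 67.91 and 57.44 TPM, those at 100 µM 47.39, 65.66 and 49.91 TPM, and those at 200 µM 88.24, 72.35 and 60.78 TPM. The lowest control library was above the highest deprived library by a wide margin, and the 3 deprived groups overlapped. Deprivation lowered Idh2 by 1.92 on the log2 scale (SE 0.13, 95% interval -2.21 to -1.63, adjusted p = 1.95e-08), to 0.264 times the control level on the log2(TPM + 1) scale. It remained a fall of 1.15 under median-of-ratios scaling (adjusted p = 1.98e-06). About 10.4% of tested genes had a change as low or lower.

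With empagliflozin Idh2 differed from GD by -0.20 at 100 µM (95% interval -0.49 to 0.09, adjusted p = 0.369) and by 0.23 at 200 µM (-0.05 to 0.52, adjusted p = 0.173), neither of them called. The doses differed from each other by 0.43 (SE 0.13, adjusted p = 0.023), although their libraries overlapped. That call was lost under median-of-ratios scaling (0.28, adjusted p = 0.0885) and without 100 µM replicate 1 (0.34) or 3 (0.38) or 200 µM replicate 1 (0.30) or 2 (0.44), with adjusted p up to 0.108. It was also lost in the fit with no filter on low values (adjusted p = 0.0657) and in that of the 2 groups alone (adjusted p = 0.0712). Conversely, the difference between 200 µM and GD was called without 200 µM replicate 3 (0.36, adjusted p = 0.0438). The spread was widest at 200 µM, where the SD was 13.8 TPM, against 2.68 TPM in control.

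Oxoglutarate dehydrogenase converts 2-oxoglutarate to succinyl-CoA. The table holds a row named LOC103693780 and described as a mitochondrial-like 2-oxoglutarate dehydrogenase, which is given by that identifier and not as a member. It was at 32.38, 32.66 and 31.46 TPM in control and at 9.12, 11.44 and 8.21 TPM in GD. Its log2 fold change was -1.66 (adjusted p = 2.03e-08), and -0.93 under median-of-ratios scaling. It averaged 8.15 ± 0.82 TPM at 100 µM and 10.6 ± 0.81 TPM at 200 µM (SD, n = 3), and neither dose was called against GD as deposited (-0.20 and 0.14). Median-of-ratios scaling made the value at 100 µM a called fall of 0.24 (adjusted p = 0.0467) and turned that at 200 µM to -0.04. The other subunits of this complex, Dlst and Dld, are described with further cycle genes below.

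Suclg1 encodes the alpha subunit of succinate-CoA ligase, which both the GTP-forming and the ATP-forming enzyme contain. It was at 207.68, 204.93 and 192.55 TPM in control and at 194.16, 200.11 and 179.77 TPM in GD. The groups overlapped, and the log2 fold change of -0.08 (95% interval -0.22 to 0.07, adjusted p = 0.293) was not called, while median-of-ratios scaling turned it into a rise of 0.69 (adjusted p = 2.61e-07). Suclg1 was at 199.99, 211.02 and 214.51 TPM at 100 µM and at 175.23, 182.49 and 157.66 TPM at 200 µM. Every library at 200 µM lay below every library at 100 µM. The doses differed by -0.28 (SE 0.07, adjusted p = 0.00548), and by -0.44 under median-of-ratios scaling (adjusted p = 1.24e-04), so Suclg1 was the one member called lower at the higher dose than at the lower as deposited. Against GD it was 0.12 at 100 µM (adjusted p = 0.248) and -0.16 at 200 µM (adjusted p = 0.0719), and the latter was called under median-of-ratios scaling (-0.35, adjusted p = 3.49e-04), and without GD replicate 3 or 200 µM replicate 2 (-0.20 in both, adjusted p = 0.0327 and 0.0402).

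Sdha and Sdhb encode the flavoprotein and the iron-sulfur protein of succinate dehydrogenase, which is also complex II of the respiratory chain. Sdha was at 57.02, 56.66 and 55.67 TPM in control, 26.43, 25.64 and 22.14 TPM in GD, 24.38, 24.00 and 24.22 TPM at 100 µM, and 36.72, 33.66 and 31.14 TPM at 200 µM. The libraries at 200 µM lay between control and the other deprived groups without overlap. Deprivation lowered Sdha by 1.16 on the log2 scale (SE 0.08, adjusted p = 1.94e-08), and by 0.41 under median-of-ratios scaling (adjusted p = 6.87e-05). At 100 µM it differed from GD by -0.03 (95% interval -0.20 to 0.15, adjusted p = 0.876). At 200 µM it rose by 0.44 against GD (SE 0.08, adjusted p = 7.33e-04) and by 0.46 against 100 µM (adjusted p = 7.52e-04). Both rises held under median-of-ratios scaling, at 0.25 and 0.31.

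Sdhb was at 231.88, 241.41 and 239.02 TPM in control, 171.48, 167.10 and 160.59 TPM in GD, 202.80, 206.96 and 203.03 TPM at 100 µM, and 215.69, 227.55 and 217.04 TPM at 200 µM. No group overlapped another, and the order was control, 200 µM, 100 µM, GD. Sdhb fell with deprivation by 0.51 (SE 0.05, adjusted p = 3.89e-07), against a rise of 0.26 under median-of-ratios scaling (adjusted p = 0.00366) and -0.08 with ribosomal and ferritin genes set aside (adjusted p = 0.102). It rose at both doses against GD, by 0.29 at 100 µM (SE 0.05, adjusted p = 0.00213) and by 0.40 at 200 µM (SE 0.05, adjusted p = 2.72e-05), and kept both calls under median-of-ratios scaling (0.26 and 0.21) and without any single library (adjusted p at most 0.009). The step between the doses, 0.11 (95% interval 0.00 to 0.21), was not called (adjusted p = 0.106).

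Mdh2 encodes the mitochondrial malate dehydrogenase, which closes the cycle and takes part in the malate-aspartate shuttle. It was the most abundant member in control, at 337.30, 368.79 and 353.48 TPM, and lay at 176.22, 182.73 and 173.42 TPM in GD. The groups were far apart, with a fall of 0.99 on the log2 scale (SE 0.06, adjusted p = 3.93e-09), or 0.22 under median-of-ratios scaling (adjusted p = 0.0139). It was at 201.25, 213.40 and 209.91 TPM at 100 µM and at 220.67, 231.73 and 204.93 TPM at 200 µM. All drug libraries exceeded all GD libraries, and the doses overlapped. Mdh2 rose against GD by 0.23 at 100 µM (adjusted p = 0.0205) and by 0.30 at 200 µM (adjusted p = 9.99e-04). Neither rise was called under median-of-ratios scaling (0.19, adjusted p = 0.0778, and 0.11, adjusted p = 0.242). The call at 100 µM was also lost without GD replicate 1 or without 100 µM replicate 2 or 3 (0.21 to 0.22, adjusted p up to 0.0664), in limma without a trend (adjusted p = 0.065) and in a fit of the 2 groups alone (adjusted p = 0.0565).

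A search of 7 members' promoters for 6 motifs found a cyclic AMP response element in those of Sdhb and Mdh2. Whether the motifs relate to the changes above was not tested. The RefSeq promoters (build GRCr8, 250 bases before to 50 after the start) matched all members with a row except Idh3a. The sequence before Mdh2 is shown whole, chr12:26543842-26544091 on the minus strand, with an ETS-type motif (CCGGAAG) and the response element (TGACGTCA) in capitals, followed by the Sdhb sites at chr5:158547816-158547842 and chr5:158547927-158547954 on the plus strand.
Mdh2 promoter: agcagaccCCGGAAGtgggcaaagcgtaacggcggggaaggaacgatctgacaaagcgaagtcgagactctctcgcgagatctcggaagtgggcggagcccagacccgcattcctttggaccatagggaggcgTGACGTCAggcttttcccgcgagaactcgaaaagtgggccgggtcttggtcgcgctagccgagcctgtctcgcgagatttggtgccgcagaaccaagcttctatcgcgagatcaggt
Sdhb ETS-type site: actcgggataCCGGAAGctgccttcca
Sdhb response element: ggggtggggcTGACGTCAggagccaaaa
The response element begins 117 bases before the start in Mdh2 and at base 4 in Sdhb.

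Of the 7 promoters, 2 held TGACGTCA, beside 1.83% of all 33469 promoters of the table, and 3 held CCGGAAG (Idh3b, Mdh2 and Sdhb), beside 8.75%. None of the 7 held the ERR-type TCAAGGTCA (0.433% of all), the NRF1-type GCGCATGCG (1.52%), the YY1-type AAGATGGCG (1.73%) or the E-box CACGTG (6.42%). Both strands were searched, and the motifs printed for Mdh2 and Sdhb do not overlap. A match is a description of letters only, and binding was not measured.

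The drug comparisons use the same 3 GD libraries, as the comparisons with control share the control libraries. At 100 µM 2 of 8 members rose against GD (Sdhb and Mdh2) and 1 fell (Cs), where 7.51% of all tested genes rose and 5.46% fell. The member median was -0.02, beside 0.02 for all genes. Single libraries moved this background by more than 1.5 times: the 925 genes higher and 672 lower became 861 and 1615 without GD replicate 3, 617 and 389 without GD replicate 1, 766 and 371 without GD replicate 2, 717 and 384 without 100 µM replicate 1, and 536 and 469 without 100 µM replicate 3. The fit of those 2 groups alone gave 422 and 285. At 200 µM 3 of 8 rose (Sdha, Sdhb and Mdh2) and 1 fell (Cs), where 32.0% of all genes rose and 11.4% fell, and the medians were 0.19 and 0.14. Against 100 µM, 3 of 8 were higher at 200 µM (Idh2, Idh3b and Sdha) and 1 was lower (Suclg1), where 25.7% and 8.06% of all genes were called. The shares at 200 µM thus stand near the background.

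Under median-of-ratios scaling the call at 100 µM was 1 higher (Sdhb) and 1 lower (Cs), with a background of 7.77% and 10.9%. At 200 µM it was 2 higher (Sdha and Sdhb) and 3 lower (Cs, Idh3a and Suclg1), with 22.4% and 24.4%. Between the doses it was 1 higher (Sdha) and 2 lower (Idh3a and Suclg1), with 18.7% and 18.4%. Cs and Sdhb at both doses and Sdha at 200 µM were therefore called in the same direction against GD by both scalings.

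**Figure D2:**
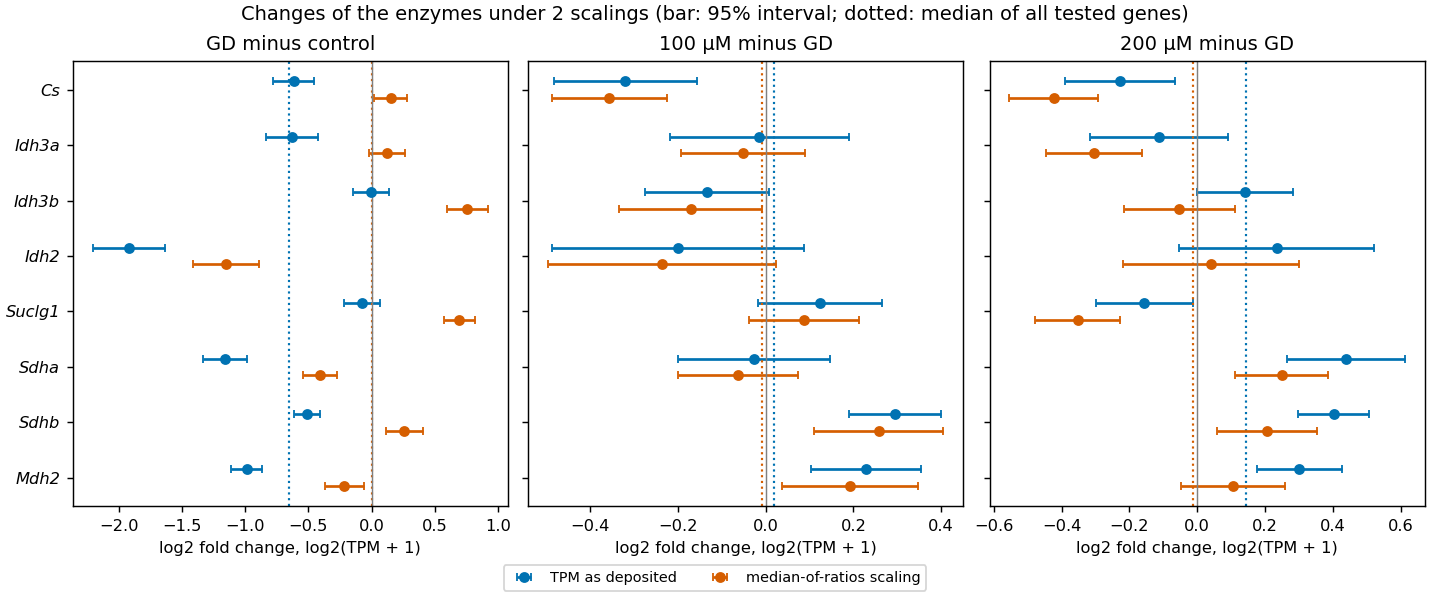
Log2 fold change of each member (horizontal axes, log2(TPM + 1)) in 3 comparisons, with 95% intervals, for TPM as deposited and after median-of-ratios scaling; dotted lines mark the median of all tested genes. For GD against control the points of Cs, Idh3a, Idh3b, Suclg1 and Sdhb lie on opposite sides of 0 under the 2 scalings, and Idh2 lies lowest under both.

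Against control, each drug group also showed 6 of 8 members lower and none higher. At 100 µM, 66.6% of all genes were lower and 14.1% higher; at 200 µM these were 62.8% and 13.4%. At 100 µM the members not called were Idh3b (-0.14, adjusted p = 0.0636) and Suclg1 (0.05, adjusted p = 0.511), and at 200 µM they were Idh3b (0.13, adjusted p = 0.0754) and Sdhb (-0.11, adjusted p = 0.0535). Idh2 was lowest in both, at -2.12 and -1.69. The libraries of Sdhb at 200 µM nevertheless did not overlap control, and Sdhb was called there with no filter on low values (adjusted p = 0.0309), without GD replicate 3 (-0.11, adjusted p = 0.0338) or without 200 µM replicate 2 (-0.13, adjusted p = 0.0368). Idh3b was called without control replicate 1 at 100 µM (-0.19, adjusted p = 0.0279) and without 200 µM replicate 2 at 200 µM (0.17, adjusted p = 0.047). Under median-of-ratios scaling 3 members were higher than control at 100 µM (Suclg1, 0.78, Idh3b, 0.59, and Sdhb, 0.52) and 3 lower (Idh2, -1.39, Sdha, -0.47, and Cs, -0.20), where 38.4% of all genes were higher and 38.2% lower. At 200 µM the scaled values gave 3 higher (Idh3b, 0.70, Sdhb, 0.47, and Suclg1, 0.34) and 4 lower (Idh2, -1.11, Cs, -0.27, Idh3a, -0.18, and Sdha, -0.16), with 35.3% and 35.6% of all genes. Mdh2 lost both calls there (-0.02 and -0.11).

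Ratios of the transcripts of partner subunits within a library do not depend on how the library is scaled. For 3 libraries against 3 the exact two-sided permutation test cannot give a p below 0.1, and over the 44 tests of 11 ratios the lowest adjusted p was 0.169, so the ratios are given as values with no call. The groups did not overlap for 8 of 11 ratios between GD and control, 6 between 100 µM and GD, 7 between 200 µM and GD, and 5 between the doses. How often other pairs of genes separate in this way was not computed. These counts thus have no background and are not a result about the cycle.

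Within isocitrate dehydrogenase, the ratio of Idh3a to Idh3b averaged 0.612 ± 0.074 in control and 0.391 ± 0.029 in GD (SD, n = 3). With the drug it was 0.425 ± 0.029 at the lower dose and 0.327 ± 0.027 at the higher. The alpha transcript was thus lower relative to beta in all deprived groups, with no overlap with control. Relative to gamma it was 0.534 ± 0.076 in control and 0.672 ± 0.047 in GD, and those libraries overlapped. The transcript of the NADP-dependent enzyme was lower in GD relative to the alpha transcript of the NAD-dependent one: Idh2 to Idh3a was 5.19 ± 0.36 in control and 2.12 ± 0.11 in GD. It was 1.88 ± 0.30 at 100 µM and 2.76 ± 0.62 at 200 µM.

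Within succinate dehydrogenase, Sdha to Sdhb averaged 0.238 ± 0.007 in control and 0.149 ± 0.009 in GD (SD, n = 3). The lower dose gave 0.119 ± 0.002 and the higher 0.154 ± 0.014. At 100 µM, where Sdhb had risen and Sdha had not been called, every library lay below every other library of the study. Sdhb to Sdhc, the latter a membrane anchor of the complex, went the other way, with 0.831 ± 0.018 in control, 0.935 ± 0.029 in GD, 1.17 ± 0.07 under 100 µM and 1.25 ± 0.05 under 200 µM. The drug libraries were above the GD libraries at both doses. The ratio of Sdhb to Sdhd, the second anchor, was 2.75 ± 0.14 in control and 2.70 ± 0.003 in GD, and 3.14 ± 0.03 and 3.16 ± 0.31 at 100 and 200 µM.

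In succinate-CoA ligase the alpha transcript can be set beside the beta subunit of the GTP-forming enzyme, Suclg2, or of the ATP-forming enzyme, Sucla2. Suclg1 to Suclg2 was 4.96 ± 0.13 in control and 8.66 ± 0.53 in GD, then 10.5 ± 0.78 with 100 µM and 6.86 ± 0.61 with 200 µM (SD, n = 3), with no overlap in any of the 4 comparisons. Suclg1 to Sucla2 was 5.996 ± 0.53 in control and 6.005 ± 0.62 in GD, then 7.11 ± 0.67 at 100 µM and 6.33 ± 0.42 at 200 µM. Its libraries at 100 µM lay above those of GD, and the other compared groups overlapped. The balance of the beta transcripts shifted with deprivation: Suclg2 to Sucla2 fell from 1.21 ± 0.09 to 0.693 ± 0.046, and was 0.682 ± 0.089 at 100 µM and 0.924 ± 0.024 at 200 µM.

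Around citrate and oxaloacetate, Cs to Mdh2 was 0.521 ± 0.012 in control and 0.674 ± 0.030 in GD (SD, n = 3), and with the drug 0.460 ± 0.028 and 0.466 ± 0.003 at the lower and higher dose. GD libraries were above all others, and both drug groups were below control. Mdh2 relative to its cytosolic counterpart Mdh1 was 2.42 ± 0.19 in control, 2.05 ± 0.14 in GD, and 2.12 ± 0.04 and 2.30 ± 0.10 with the drug.

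**Figure D3:**
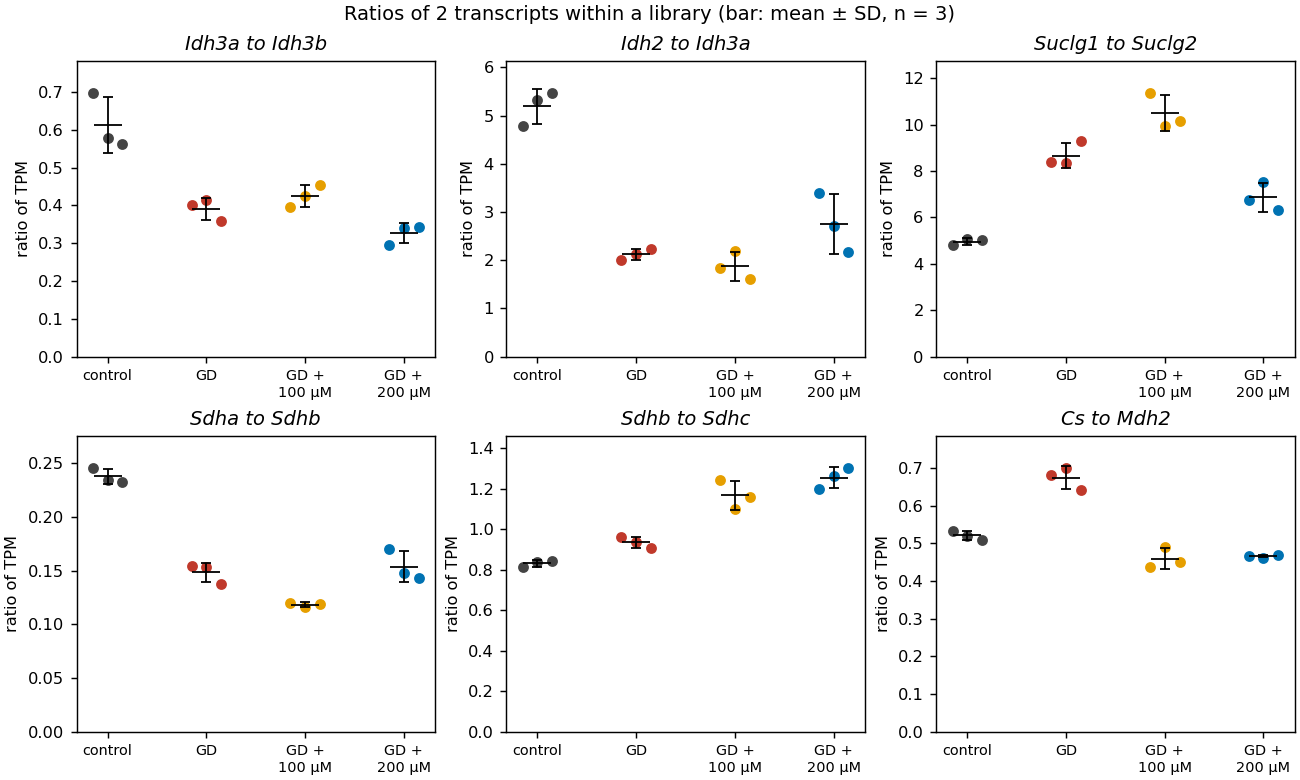
Ratio of TPM of 2 transcripts (vertical axes) in each library (points) of the 4 groups (horizontal axes), with mean and SD. The ratio of Sdhb to Sdhc averages 0.831 in control and 1.25 at 200 µM, and that of Suclg1 to Suclg2 averages 10.5 at 100 µM and 6.86 at 200 µM.

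Further cycle genes were read from a list of 9 symbols, of which 8 had a row. With deprivation 6 of the 8 fell and none rose, with a median log2 fold change of -0.60; over all tested genes 67.6% fell, 14.0% rose and the median was -0.65, so the count lies near the background. The lowest was Dlst, the succinyltransferase of the oxoglutarate dehydrogenase complex, at -1.28 (105.5 ± 2.35 TPM in control, 43.2 ± 5.61 TPM in GD; SD, n = 3). Dld, the lipoamide dehydrogenase that this complex shares with pyruvate dehydrogenase, and Sucla2 were not called (-0.21, adjusted p = 0.0599, and -0.07, adjusted p = 0.505). Under median-of-ratios scaling 4 of the 8 rose and 2 fell, where 38.5% of all genes moved each way, with Dld at 0.55 and Sucla2 at 0.67.

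With the drug, 1 of these 8 rose against GD at 100 µM (Dld, 0.41, adjusted p = 0.0134) and 2 at 200 µM (Dld, 0.28, and Sdhd, 0.18), and none fell. Of all genes, 7.51% rose and 5.46% fell at 100 µM, and 32.0% and 11.4% did at 200 µM. Neither rise at 200 µM was called under median-of-ratios scaling (0.09 and -0.01). Between the doses, Suclg2 was higher at 200 µM (0.32), but not under median-of-ratios scaling (0.16, adjusted p = 0.0555). Sdhc was not called at either dose (-0.02 at both), and its level was 178.0 ± 0.41 TPM in GD, 175.6 ± 12.6 TPM with 100 µM and 175.6 ± 7.77 TPM with 200 µM. Fh, which encodes fumarase, was lowest between the doses (-0.17, adjusted p = 0.144). Median-of-ratios scaling called more of these genes lower. It gave 1 higher and 1 lower at 100 µM (Dlst, -0.25, adjusted p = 0.0078), beside 7.77% and 10.9% of all genes, and none higher and 3 lower at 200 µM (Sucla2, -0.42, Dlst, -0.24, and Sdhc, -0.22), beside 22.4% and 24.4%. Between the doses it gave none higher and 3 lower (Fh, -0.32, Dld, -0.29, and Sucla2, -0.27), beside 18.7% and 18.4%.

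**Figure D4:**
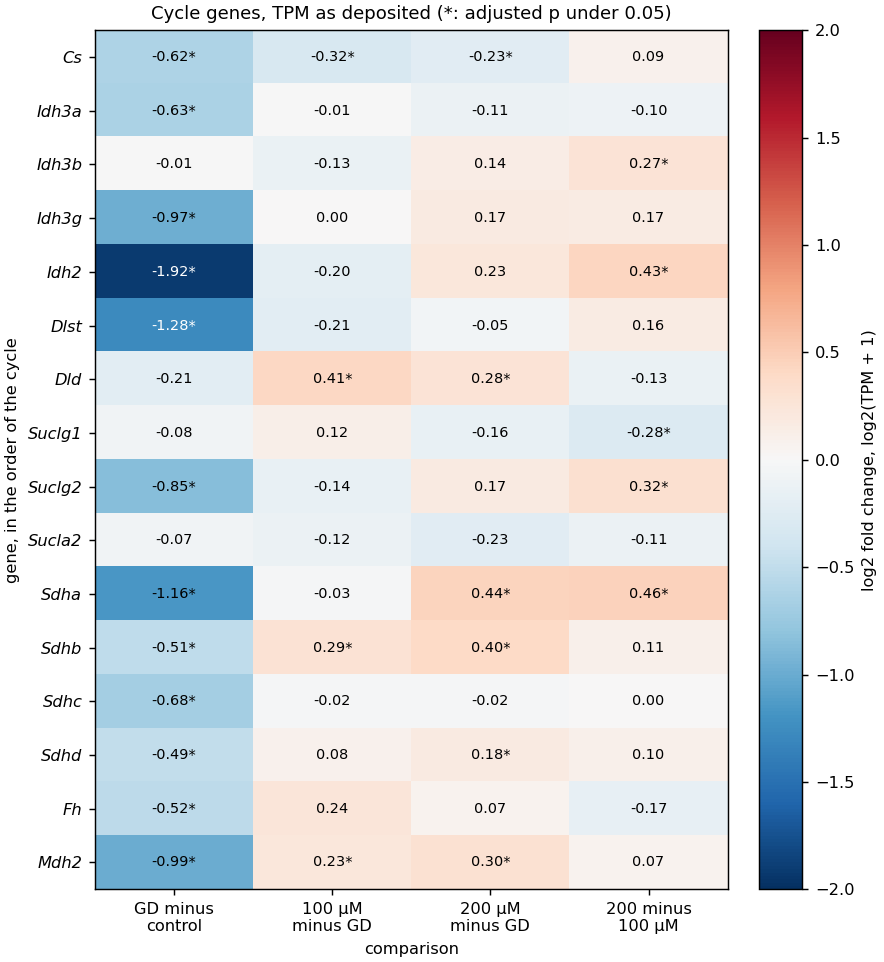
Log2 fold change (colour and number, log2(TPM + 1), TPM as deposited) of cycle genes with a row (vertical axis, in the order of the cycle) in 4 comparisons (horizontal axis); a star marks an adjusted p under 0.05. The first column runs from -1.92 for Idh2 to -0.01 for Idh3b; under median-of-ratios scaling the signs of Cs, Idh3a, Idh3b, Suclg1, Sdhb and some other genes in it are reversed.

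Of 3 assembly factors of succinate dehydrogenase with a row, Sdhaf2 and Sdhaf4 fell with deprivation (-0.69 and -0.53) and Sdhaf3 rose (0.52, adjusted p = 5.84e-04). Among all genes 67.6% fell and 14.0% rose (median -0.65), so 2 of 3 lower lies near the background. Under median-of-ratios scaling all 3 values were positive (0.06, 0.23 and 1.23). At 200 µM Sdhaf2 and Sdhaf4 rose against GD, by 0.22 and 0.43, beside 32.0% higher and 11.4% lower among all genes. Under median-of-ratios scaling these 2 values were 0.03 (adjusted p = 0.623) and 0.24. At 100 µM none of the 3 was called by limma, beside 7.51% higher and 5.46% lower among all genes. Of the 3, 1 (Sdhaf4) had an unadjusted p under 0.05 there. It was called under median-of-ratios scaling (0.24, adjusted p = 0.0426), beside 7.77% and 10.9% of all genes. Lias and Lipt2 take part in making the lipoyl group that Dlst carries. With deprivation they were at 0.28 and -0.32, although both were positive under median-of-ratios scaling (0.92 and 0.36). Lipt2 was higher than GD at both doses (0.34 and 0.40), the second not under median-of-ratios scaling (0.23, adjusted p = 0.0704).

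Citrate leaves mitochondria through the carrier Slc25a1 and is split in the cytosol by Acly. Of the 5 genes of this cytosolic list 4 fell with deprivation and none rose (median -1.59), beside 67.6% lower and 14.0% higher among all genes (median -0.65); under median-of-ratios scaling 3 fell and 1 rose, beside 38.5% each way. Slc25a1 fell most, from 150.1 ± 8.91 to 35.4 ± 1.91 TPM (log2 fold change -2.05, adjusted p = 3.24e-11), beside -1.92 for Idh2; it was -1.29 under median-of-ratios scaling. Slc25a1 rose against GD at both doses (0.50 and 0.84, adjusted p = 7.28e-04 and 1.03e-06). Idh1, the cytosolic NADP-dependent isocitrate dehydrogenase, was not called: control libraries averaged 42.1 ± 1.92 TPM and GD libraries 48.0 ± 7.61 TPM (log2 fold change 0.17, adjusted p = 0.176), and it was a rise of 0.93 under median-of-ratios scaling. It fell against GD at both doses (-0.42 and -0.44). Mdh1 was lowest of the list between the doses (-0.04, adjusted p = 0.677, and a called -0.20 under median-of-ratios scaling).

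Of 9 tested genes that bring carbon into or out of the cycle, 8 fell with deprivation and none rose (median -0.87), where 67.6% of all genes fell and 14.0% rose (median -0.65). Under median-of-ratios scaling 4 fell and 3 rose, where 38.5% of all genes moved each way. The lowest was Gpt2, the mitochondrial alanine aminotransferase (-1.99), and the highest was Me2, the mitochondrial malic enzyme (-0.25, adjusted p = 0.0964), which turned to a rise of 0.49 under median-of-ratios scaling (adjusted p = 7.65e-04). Slc25a11, the oxoglutarate carrier of the malate-aspartate shuttle, was at 73.3 ± 1.47 TPM in control and fell to 20.2 ± 1.01 TPM in GD (SD, n = 3). With the drug it rose to 36.1 ± 5.92 and 35.9 ± 1.88 TPM, 0.80 above GD on the log2 scale at both doses. Counts against GD were 2 higher and 1 lower at 100 µM and 2 higher and 2 lower at 200 µM, or 2 and 3, and 2 and 4, under median-of-ratios scaling. Of all genes, 7.51% were higher and 5.46% lower at 100 µM, and 32.0% and 11.4% at 200 µM. Under median-of-ratios scaling these shares were 7.77% and 10.9%, and 22.4% and 24.4%. Pc, pyruvate carboxylase, was lowest at 100 µM (-0.33, adjusted p = 0.0563, and called under median-of-ratios scaling at -0.37). It was also the highest of the list between the doses (0.31, adjusted p = 0.0394, and 0.16 when scaled, adjusted p = 0.199), where Me2 was lowest and not called (adjusted p = 0.186; called under median-of-ratios scaling, -0.39). Me1, the cytosolic malic enzyme, was lowest at 200 µM and fell by 0.45 (adjusted p = 0.00174).

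Pyruvate enters mitochondria through the carrier made of Mpc1 and Mpc2 and becomes acetyl-CoA at pyruvate dehydrogenase. Of 12 tested genes of this step 3 rose and 8 fell with deprivation (median -0.79), beside 14.0% and 67.6% of all genes (median -0.65). Under median-of-ratios scaling 5 rose and 6 fell, beside 38.5% each way. Mpc1 rose most, from 105.7 ± 2.67 to 198.6 ± 11.4 TPM (log2 fold change 0.90, adjusted p = 6.60e-09), and Pdp2, a phosphatase that activates the dehydrogenase, fell most (-1.44). At 200 µM Mpc1 was at 139.3 ± 3.41 TPM, lower than GD by 0.51 (adjusted p = 1.36e-05), while at 100 µM it was at 197.0 ± 6.67 TPM. Pdhx, the component that binds Dld to the complex, fell against GD at both doses (-0.59 and -0.64). The kinases Pdk1 and Pdk2, which inhibit the dehydrogenase, were higher than GD at 200 µM (0.59 and 0.54). The list as a whole had 4 genes higher and 4 lower at 200 µM, beside 32.0% and 11.4% of all genes. Under median-of-ratios scaling it had 3 and 5, beside 22.4% and 24.4%. The kinase Pdk3 went the other way from Pdk1 and Pdk2 (-0.43, adjusted p = 0.00884). The activating phosphatase Pdp1 was higher (0.56, adjusted p = 0.00206). Pdk3 and Pdp1 were named after their values were seen. Mpc2 was highest of the list at 100 µM and not called (0.17, adjusted p = 0.067).

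Among 10 tested regulators of mitochondrial genes, 1 rose with deprivation and 5 fell (median -0.42), beside 14.0% and 67.6% of all genes (median -0.65). Under median-of-ratios scaling 5 rose and 3 fell, beside 38.5% each way. Tfam, which maintains and transcribes mitochondrial DNA, rose (0.39, adjusted p = 4.88e-04). Ppargc1b, a coactivator counted among those that fell, averaged 1.75 ± 0.22 TPM in control and 0.24 ± 0.02 TPM in GD (-1.14). It reached 1 TPM in the 3 control libraries only and so passed the filter through the group where it was high. Its fall was thus favoured beforehand and is given as a description only. Gabpb1, a subunit of the ETS-type factor GABP, fell by 0.97 and rose against GD at 200 µM by 0.39 (adjusted p = 0.0233), not called under median-of-ratios scaling (0.23, adjusted p = 0.0621). Nrf1 was lower than GD at 200 µM (-0.38, adjusted p = 0.0124). At 100 µM none of the 10 was called by limma, beside 7.51% higher and 5.46% lower among all genes. The unadjusted p was under 0.05 for 2 of them. Under median-of-ratios scaling 1 was called (Nrf1, -0.33, adjusted p = 0.0384), beside 7.77% and 10.9%. Between the doses Tfb1m, which methylates mitochondrial ribosomal RNA, was lowest (-0.41, adjusted p = 0.0426), and Yy1, a transcription factor, was highest and not called (0.28, adjusted p = 0.23). The coactivator Pprc1 was the lowest regulator at 200 µM against control (-1.19, adjusted p = 1.90e-05).

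Across the 12 libraries the members did not vary as one. Pearson's r between the log2 levels was 0.942 for Idh2 and Mdh2, 0.96 for Idh2 and Sdha, 0.939 for Cs and Idh2, and -0.656 for Idh3b and Suclg1. These points share a total per library and are dominated by the difference between control and deprived libraries, so r is a description only. The correlation with the mean profile of the members was 0.992 for Idh2, 0.71 for Sdhb, 0.246 for Suclg1 and 0.20 for Idh3b. That mean includes the gene itself, and Idh2, which changed most, weighs heavily in it. The genes outside the list with the most similar profile were Fbxw8, Nr2f2, Stk38l, Fto and Svil, with r from 0.9971 to 0.9986.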

How the data were processed

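The authors deposited TPM for 12 libraries, and per the submitters' processing notes HISAT2 and StringTie were used; the sources used here give no version, genome build, annotation or strand setting. The deposited table does not name its unit, which was read from the values. TPM keep no record of reads, so depth is unknown and no counting interval was computed.

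The 12314 of 35966 rows that reached 1 TPM in 3 or more libraries were tested as log2(TPM + 1) with limma 3.58.1 in R 4.3.3, with a trend, 1 mean per group and all 12 libraries in 1 model. Tests were two-sided, with Benjamini-Hochberg adjustment over all tested genes per comparison, and the script was tested on simulated data. Members were matched by symbol with any letter case. Ratios were computed within libraries in Python 3.11.15 and tested by exact permutation. Motifs were sought in RefSeq promoters of GRCr8. The named genes are every member, and of each pathway list those used in a ratio and those highest or lowest in a comparison as deposited; Pdk3 and Pdp1 were added after their values were seen, as were genes named only to spell out a count. Some listed genes are not reported here. Members and lists were chosen with earlier results of these data known. Alternatives were median-of-ratios scaling, a common total without 184 ribosomal and ferritin rows, pseudocount 0.1, no filter, a filter of 5 TPM, no trend, the compared groups alone, a threshold of 0.01, replicate number as a term, and each library left out in turn. No 2 libraries held identical values. No column of another sample was present.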

Additional observations from a re-analysis of the deposited data

How the results depend on the processing

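Median-of-ratios scaling turned the log2 fold change of GD against control positive for Cs (0.15), Idh3a (0.12), Idh3b (0.76), Suclg1 (0.69) and Sdhb (0.26). It did so against control for Idh3a (0.0716), Idh3b (0.59) and Sdhb (0.52) at 100 µM and for Suclg1 (0.34) and Sdhb (0.47) at 200 µM. It also turned Idh3b at 200 µM against GD (-0.0533) and, between the doses, Cs (-0.0667), Sdhb (-0.0523) and Mdh2 (-0.0871). With ribosomal and ferritin genes set aside, the sign turned for Idh3b (0.42) and Suclg1 (0.35) in GD against control, Idh3b (0.27) and Sdhb (0.20) at 100 µM, and Suclg1 (0.12) and Sdhb (0.25) at 200 µM against control. The cause was not tested.

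The count of members called at 100 µM against GD went from 3 to 1 with the 2 groups alone and to 1 at an adjusted p under 0.01. Over all 12314 tested genes the count also dropped, from 1597 to 707 and to 675 in these settings. The pseudocount of 0.1 and the filter of 5 TPM changed no direction or call of the 48 member results. Deviations of same-numbered libraries from their group means had r from -0.094 to 0.212 over 18 pairs, with 3 pairs over 0.1. These values cannot show whether same-numbered libraries were prepared together, which the labels do not state. With the replicate block, the members called were 6 in GD against control, 3 at 100 µM and 4 at 200 µM against GD, as without it, and no member's call changed.

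Leaving out 1 library in turn turned the sign of values near 0. The ranges were -0.0524 to 0.0225 for Idh3b in GD against control, and -0.10 to 0.0634 for Idh3a and -0.10 to 0.0214 for Sdha at 100 µM against GD. On the log2 scale of ratios they were -0.0477 to 0.0189 for Sdhb to Sdhd and -0.0703 to 0.0793 for Suclg1 to Sucla2 in GD against control, the latter also -0.0015 with TPM + 1. At 100 µM against GD they were -0.0916 to 0.0471 for Idh3a to Idh3g and -0.13 to 0.0598 for Suclg2 to Sucla2, and for Sdha to Sdhb at 200 µM -0.0255 to 0.0979. Between the doses they were -0.0621 to 0.0798 for Sdhb to Sdhd and -0.0163 to 0.0688 for Cs to Mdh2. With 3 libraries per group and no read numbers, a missing call does not show equal levels. An interval printed for a change that was not called gives the sizes that remain compatible with these libraries.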
